A study of Homo sapiens with 4 samples.

Results

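The kinesin motor genes named KIF and a number were measured by RNA-seq in glioblastoma (GBM) cells, and those that work in mitosis were set beside those that carry cargo. They were taken as the protein-coding genes of GENCODE 29 whose symbol is KIF, a number and at most 1 further letter, which gave 39 of the 58226 gene IDs in the files. By textbook role, and with earlier results of these data known, 13 were grouped as mitotic, 13 as transport and 13 as other. The data hold 4 libraries, 1 per group. U87MG, an established human GBM cell line, received non-targeting siRNA (si-NC) or siRNA against the lncRNA *LINC00461* (si-LINC00461). The paper lists 1 siRNA sequence for *LINC00461* and several for si-NC. R-U87MG, a derivative of U87MG that is resistant to temozolomide (TMZ) and was kept in TMZ, received si-NC or a pool of siRNAs against the deacetylase HDAC6 (si-HDAC6). All cells were thus transfected, and no library came from untransfected cells. The paper asks how HDAC6 and *LINC00461* bear on GBM cell division and drug resistance.

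Kinesins are motors that use ATP to move along microtubules or to take their ends apart. During mitosis a set of them builds the bipolar spindle, moves chromosomes and organizes the midzone and midbody, and many genes of this set are known to be expressed mainly in G2 and M phase. Transport kinesins walk toward microtubule plus ends with vesicles, mitochondria, endosomes or ciliary cargo, in dividing and non-dividing cells alike. GBM lines divide in culture, and neurons and glia depend on transport kinesins for their long processes.

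The deposited values looked like estimated fragment counts scaled by 1 factor per library, which was inferred from the values. With the factor undone, the libraries held 12596072 to 20027866 fragments, and 3 counts, taken as the smallest measurable level, equalled 0.150 to 0.238 CPM, a unit in which every library has the same total. The siRNA targets were lower in their own knockdowns. *LINC00461* was at 363 counts in U87MG si-NC and 73 in U87MG si-LINC00461, and HDAC6 was at 296 in R-U87MG si-NC and 67 in R-U87MG si-HDAC6. The line's markers VIM, CD44, NES and SPARC were present in all libraries, with VIM lower after si-LINC00461 (log2 ratio −0.98). Of 11 markers of other cell types, 2 to 4 were at 0 in each library. Their summed level was 7.04 CPM in U87MG si-NC, 35.6 in U87MG si-LINC00461, 9.74 in R-U87MG si-NC and 13.3 in R-U87MG si-HDAC6. The endothelial PECAM1 (52 and 433 counts) and the neuronal SYP (22 and 125) made up most of the difference within U87MG, and the oligodendrocyte-lineage gene OLIG2, with 15, 18, 92 and 115 counts in the same order of libraries, made up most of the level in R-U87MG. In U87MG si-NC and U87MG si-LINC00461 the endothelial CDH5 had 7 and 14 counts and the neuronal RBFOX3 had 3 and 0. The part of these genes in the kinesin results was not tested.

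At the level of FPKM, which is CPM per kb of exon and allows levels of different genes to be compared, transport kinesins led in all 4 libraries. KIF5B, the ubiquitous heavy chain of kinesin-1, was the highest member with 60.9 FPKM in U87MG si-NC, 53.7 in U87MG si-LINC00461, 98.1 in R-U87MG si-NC and 84.1 in R-U87MG si-HDAC6. KIF1C, a carrier of dense-core vesicles, followed in U87MG si-NC with a level of 41.0 FPKM, and the kinesin-2 motors KIF3B and KIF3C had levels of 32.6 and 22.3 FPKM there. The highest mitotic members in U87MG si-NC were the microtubule depolymerase KIF2C with a level of 12.2 FPKM, the chromokinesin KIF22 with 11.8 and the midzone motor KIF20A with 11.2. These highest mitotic members thus lay below the leading transport motors and near KIF5A (12.4 FPKM). Other mitotic members were lower, such as KIF14 with 4.64 FPKM and KIF15 with 1.29. Some transport members were also lower, such as KIF1B with 8.36 FPKM and KIF16B with 3.85. In R-U87MG si-NC the highest mitotic levels were 27.7 FPKM for KIF20A, 25.3 for KIF11 and 24.8 for KIF23.

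Of the 39 members, 30 had a mean of at least 1 CPM over the 4 libraries, namely 11 mitotic, 11 transport and 8 other. The remaining 9 had at most 22 counts in any library. KIF19 and KIF25 had 0 counts in every library, which allows up to 3 counts in each. KIF2B, a microtubule depolymerase of the mitotic group, had 0, 1, 0 and 0 counts in the order U87MG si-NC, U87MG si-LINC00461, R-U87MG si-NC and R-U87MG si-HDAC6. KIF1A, the neuronal carrier of synaptic vesicle precursors, had 4, 2, 3 and 2, and KIF17, a kinesin-2 motor of dendrites and cilia, had 22, 9, 3 and 6. KIF4B, an intronless copy of KIF4A, had 13, 5, 22 and 15 counts. It shares 14% of its 50-base stretches with other genes, mainly KIF4A, and its counts are uncertain. KIF26B had 17, 8, 15 and 17 counts, KIF12 had 1, 2, 4 and 0, and KIF26A had 0, 3, 0 and 0.

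Within a library the mitotic and transport groups can be compared with no scaling between libraries. In U87MG si-NC 8611 fragments fell on mitotic and 32395 on transport kinesins, a mitotic share of 21.0% (95% exact binomial interval 20.6 to 21.4%). In U87MG si-LINC00461 the numbers were 1594 and 31175, a share of 4.86% (4.63 to 5.10%). The mitotic share after si-LINC00461 was thus lower while the transport fragments were of similar number. In R-U87MG si-NC 16443 and 34287 fragments gave 32.4% (32.0 to 32.8%), and in R-U87MG si-HDAC6 10268 and 25336 gave 28.8% (28.4 to 29.3%). The 4 intervals did not overlap. They reflect counting error alone, as PCR copies of 1 molecule are counted separately, and with 1 library per group no spread between replicates is known. The order of the 4 libraries was the same on the FPKM scale, where the summed mitotic level per summed transport level was 0.410, 0.0765, 0.701 and 0.603 in U87MG si-NC, U87MG si-LINC00461, R-U87MG si-NC and R-U87MG si-HDAC6. Without KIF23 and KIF5B, the largest member of each group, the ratios of fragments were 0.296, 0.0518, 0.556 and 0.455 in the same order.

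Promoter windows show a sequence feature that the grouping did not use. The windows, from 250 bases before to 50 after a RefSeq start (GRCh38.p14), were found for 33 of the 39 members and not for KIF5A, KIF13B, KIF19, KIF21B, KIF26B and KIF27. They were searched on both strands for the cell-cycle homology region (CHR, TTTGAA or TTCGAA), which the DREAM and MuvB complexes are known to bind, for the CCAAT box (CCAAT), bound by NF-Y, and for E2F words (TTTCCCGC or TTTGGCGC). TTCGAA reads alike on both strands and was counted once, and the words do not overlap each other. A CHR word was in a window of 10 of 13 mitotic members, 1 of 11 transport members and 1 of 9 other members, against 19.5% of all 27305 genes with a window. A CHR word and a CCAAT box together were in 9, 1 and 1 of them, respectively, against 7.85% of all genes. The mitotic counts of 10 and 9 include both KIF4A and its copy KIF4B, whose stretches below are nearly the same. CCAAT alone was in 10 of 13 mitotic, 4 of 11 transport and 3 of 9 other members, against 39.7% of genes. E2F words were in 1 mitotic member, KIF15, in 0 transport members and in 1 other member, KIF25, against 2.75% of genes. The following stretches, 5′ to 3′ on the strand of the gene, show the CHR word in capitals in mitotic members, in KIF24 of the other group, and in the single transport member that holds one.
KIF11, chr10:92593090-92593119, plus strand: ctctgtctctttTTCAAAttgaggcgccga
KIF14, chr1:200620733-200620762, minus strand: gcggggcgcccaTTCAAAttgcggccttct
KIF18B, chr17:44947754-44947783, minus strand: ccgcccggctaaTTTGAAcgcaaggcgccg
KIF23, chr15:69414282-69414311, plus strand: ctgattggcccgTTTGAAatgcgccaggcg
KIF4A, chrX:70290058-70290087, plus strand: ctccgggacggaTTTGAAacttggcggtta
KIF4B, chr5:155013746-155013775, plus strand: ctctgggagggaTTTGAAacttggcggtta
KIF24, chr9:34329250-34329279, minus strand: acagcgcgggcgTTCGAActggcgcttggc
KIF5B, chr10:32056548-32056577, minus strand: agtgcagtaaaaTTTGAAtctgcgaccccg

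The CHR word began at −55 in KIF23, −34 in KIF4A and −28 in KIF11 relative to the RefSeq start, at 2 in KIF14 and KIF24, at 3 in KIF18B and at 4 in KIF4B, and at −140 in KIF5B. The mitotic members without a CHR word were KIF2B, KIF2C and KIF20A. KIF20A holds 2 CCAAT boxes, shown in capitals as they read on the strand of the gene.
KIF20A box at −94, chr5:138179006-138179035, plus strand: ttccttacgcggATTGGtagctgcaggctt
KIF20A box at −67, chr5:138179033-138179062, plus strand: cttccctatctgATTGGccgaacgaacgca
These matches describe letters in a window and do not show that a factor binds there.

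The comparison of si-LINC00461 with si-NC in U87MG asks what accompanies a lower level of the lncRNA in parental cells. Effects of the siRNA on RNAs other than its target were not tested. All 11 mitotic kinesins that could be compared were lower after si-LINC00461, with a median log2 ratio of −2.19 (4.56-fold lower), while 50.2% of all genes compared had a ratio below 0. None of the 11 transport kinesins differed by 2-fold (median log2 ratio 0.13), against 8.17% of all genes lower and 5.42% higher. With 11 members, this does not set them apart from all genes. Each of the 11 mitotic members was at least 2-fold lower, against 8.17% of the 13210 genes with a mean of at least 1 CPM. For all 11 the 95% exact binomial interval of the ratio lay wholly beyond 2-fold, against 4.78% of genes. The roles were set with earlier results of these data known. KIF2A, placed in the other group, had a log2 ratio of −0.04. With KIF2A counted as mitotic, not all mitotic members would be 2-fold lower. Over all genes compared the median log2 ratio was −0.003. In bulk RNA, fewer cells of a kind, such as cells in mitosis, and less RNA per cell cannot be told apart. There is no replicate, so no p-value is given.

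Among motors of the early spindle, KIF11, which slides antiparallel microtubules apart to separate the poles, had 947 counts after si-NC and 148 after knockdown (log2 ratio −2.49, interval −2.75 to −2.24). KIF15, which can share this task, had 137 and 26 counts, a log2 ratio of −2.19 (−2.88 to −1.60). The ratio of KIF11 to KIF15 within a library was 6.91 and 5.69, and the interval of the log2 difference included 0 (−0.28, interval −0.93 to 0.37).

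Motors that act on microtubule ends and chromosomes were lower to unequal degrees. KIF2C, which removes faulty attachments at kinetochores, had 889 and 90 counts, and its log2 ratio of −3.11 (interval −3.45 to −2.80) was the lowest of the members. KIF18B, which trims astral microtubules, had 955 and 117 counts (log2 ratio −2.84, −3.13 to −2.56). KIF18A, which damps chromosome movement at the metaphase plate, had 406 and 111 (−1.68, −2.0 to −1.38). The kinesin-8 pair thus separated, and KIF18B per KIF18A went from 2.35 to 1.05 counts, a log2 difference of −1.16 (interval −1.57 to −0.75). The chromokinesin KIF22 had 1020 and 238 counts (log2 ratio −1.91, −2.12 to −1.71). KIF4A, which works on chromosome arms and with PRC1 in the midzone, had 526 and 112 (−2.04, −2.35 to −1.75), and 13.7% of its 50-base stretches are shared with other genes, mainly KIF4B.

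Motors of the midzone and cytokinesis showed a similar spread. KIF20A, which brings the chromosomal passenger complex to the midzone, had 891 and 105 counts (log2 ratio −2.89, −3.20 to −2.60). KIF14, a midbody motor that binds citron kinase, had 676 and 87 (−2.76, −3.11 to −2.45). KIF23, the motor of centralspindlin, had 1137 and 270 (−1.89, −2.08 to −1.69), and KIF20B had 1014 and 284 (−1.65, −1.84 to −1.46), the smallest decrease among the mitotic members. Within the kinesin-6 group the FPKM of KIF20A went from 41.2% to 24.3% of the summed level, whereas KIF20B went from 27.1% to 38.0%. The members with the 2 lowest ratios, KIF2C and KIF20A, are among those whose promoter window holds no CHR word, and KIF18B, with the next lowest, holds one. KIF14 and KIF21B, a motor that regulates microtubule growth, lie near each other on the minus strand of chromosome 1 (200551497 to 200620734 and 200969390 to 201023700). KIF14 per KIF21B went from 2.84 to 0.336 counts, a log2 difference of −3.08 (interval −3.49 to −2.67).

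The 11 transport members compared moved in both directions by less than 2-fold. The interval of the ratio lay below 0 for 4 of 11 and above 0 for 6, against 33.4% and 33.1% of all genes compared. Of the kinesin-1 heavy chains, KIF5B had 7170 counts in U87MG si-NC and 5613 in U87MG si-LINC00461 (log2 ratio −0.17), the neuronal KIF5A had 1552 and 1015 (−0.43), and KIF5C had 1480 and 1885 (0.54). KIF5A per KIF5C thus went from 1.05 to 0.538 counts, a log2 difference of −0.96 (interval −1.11 to −0.81). Of the kinesin-2 motors, KIF3A had 777 and 498 counts (log2 ratio −0.45), its partner KIF3B 3988 and 4203 (0.26), and KIF3C, which pairs with KIF3A in place of KIF3B, 2855 and 3794 (0.60, the highest transport member). The shared partner and the alternative motor therefore lay on opposite sides of 0.

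Of the kinesin-3 motors, KIF13A, a carrier of recycling endosomes, had 1944 and 1241 counts and the lowest transport ratio (log2 ratio −0.46, interval −0.56 to −0.36). Its paralog KIF13B had 1994 and 2122 (0.28, 0.19 to 0.37). The 2 paralogs had near-equal counts in U87MG si-NC and differed after si-LINC00461, with KIF13A per KIF13B at 0.975 and 0.585. KIF1B, which carries mitochondria and vesicles, had 2967 and 2853 counts (0.13), KIF1C 7046 and 7437 (0.27), and the early-endosome motor KIF16B 596 and 503 (−0.06, interval −0.23 to 0.12).

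In the other group, 7 members could be compared, with a median log2 ratio of −0.04. KIF24, a depolymerase of the mother centriole that restrains cilia, had 304 and 105 counts and was the single member of this group to be 2-fold lower (log2 ratio −1.34, interval −1.68 to −1.02). Its window holds both a CHR word and CCAAT boxes. KIF2A, the paralog of KIF2C that also acts in interphase, had 1035 and 882 counts (−0.04, interval −0.17 to 0.09). KIF2C per KIF2A went from 0.859 to 0.102 counts, a log2 difference of −3.07 (interval −3.41 to −2.74). KIF2A shares 7.70% of its 50-base stretches with IPO11. KIF21A, which restrains microtubule growth at the cell cortex, had 401 and 646 counts and the highest ratio of all members compared (log2 ratio 0.87, interval 0.69 to 1.06). KIF21B had 238 and 259 (0.31, 0.05 to 0.57), and KIF27 had 41 and 60 (0.73, 0.14 to 1.35), with 26.7% of its stretches in other genes. KIF7, a Hedgehog regulator of the cilium tip, had 838 and 718 counts (−0.04), and 11.8% of its exon bases lie opposite TICRR. The cilium gene KIF9 had 32 and 25 (−0.16, interval −0.98 to 0.63), and 14.9% of its exon bases lie opposite KIF9-AS1. KIF6, another cilium gene, had 5 and 7 counts and was not compared in this pair.

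**Figure D1:**
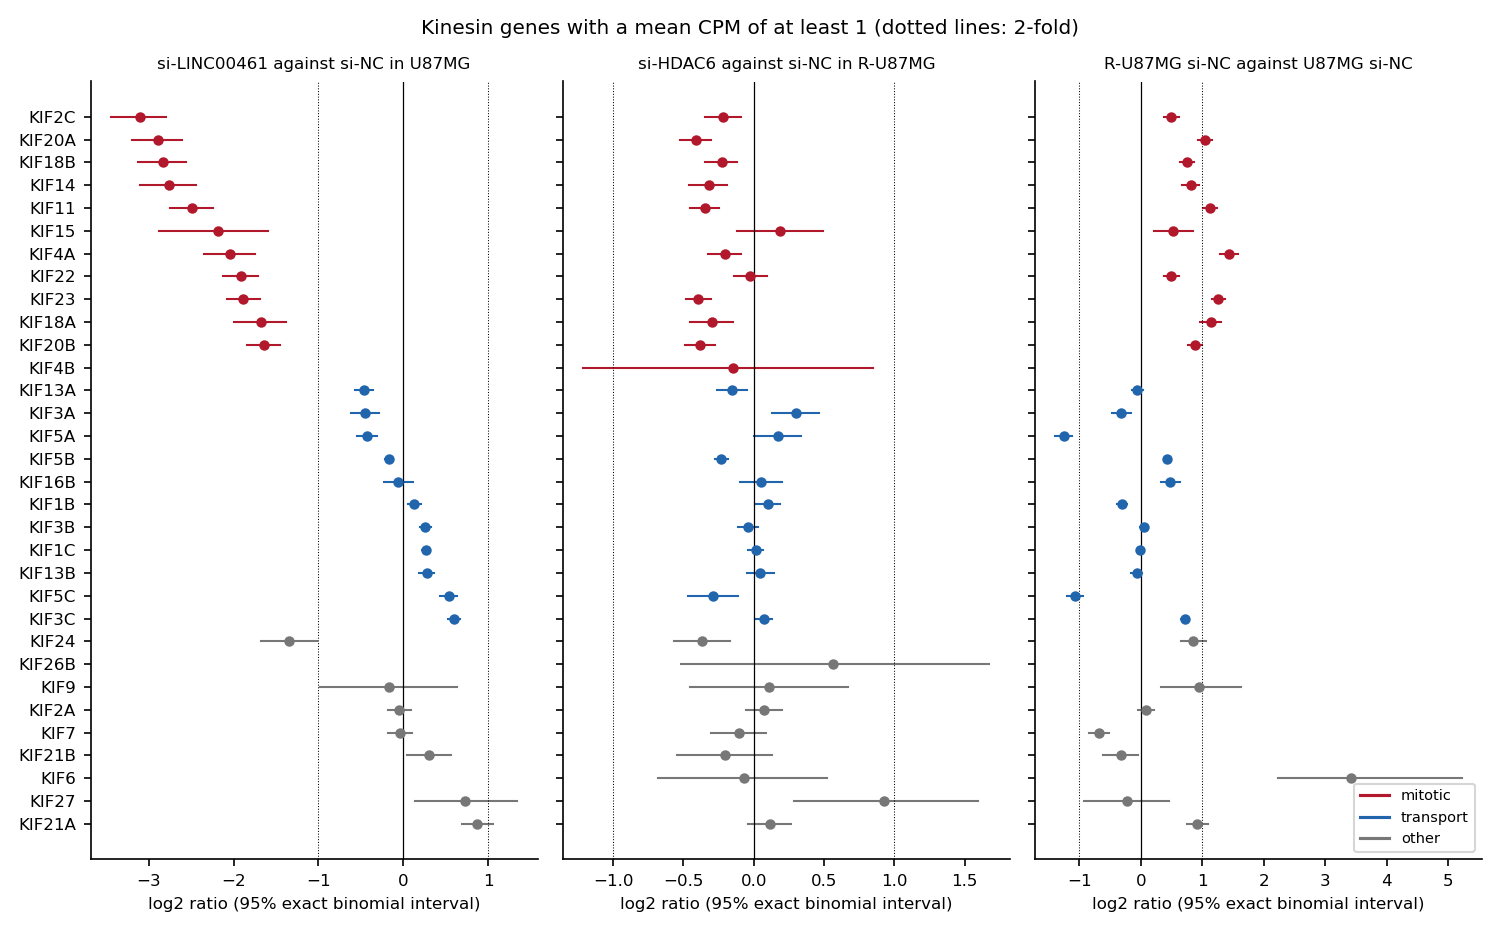
Log2 ratio of each kinesin gene with a mean of at least 1 CPM in the pair compared (points) with its 95% exact binomial interval (lines), in 3 panels with separate x axes, coloured by role and with dotted lines at 2-fold. All 11 mitotic members lie left of −1 in the si-LINC00461 panel, between −0.41 and 0.19 with KIF4B in the si-HDAC6 panel, and between 0.49 and 1.44 in the panel of the 2 controls.

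Genes that work with these motors were taken from lists chosen by function. Of 14 partners and kinases of mitotic kinesins, all 14 were at least 2-fold lower after si-LINC00461, against 8.17% of all genes, with a median log2 ratio of −2.17. They ran from −2.82 for PLK1, which docks on KIF20A, and −2.68 for PRC1, which KIF4A binds, to −1.23 for PSRC1. Of 5 kinesins with other names, the kinetochore motor CENPE had 974 and 209 counts (−2.03) and the minus-end motor KIFC3 had 1494 and 601 (−1.13). STARD9 (−0.44) and KIFC2 (−0.08) differed by less than 2-fold, and KIFC1 had 7 counts and 1 and was not compared. Of 15 light chains and cargo adaptors compared, 0 were 2-fold lower and 2 were higher, the JIP scaffolds MAPK8IP2 (1.31) and MAPK8IP1 (1.13), against 5.42% of all genes that were 2-fold higher. Of 16 subunits of dynein-1 and dynactin, the opposing transport motor, 0 differed by 2-fold (median −0.11), against 8.17% of all genes lower and 5.42% higher. With 16 subunits, this does not set them apart from all genes.

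The comparison of si-HDAC6 with si-NC in R-U87MG asks what accompanies a lower level of HDAC6 in resistant cells. The mitotic members were slightly lower (median log2 ratio −0.26, or 1.2-fold lower) and the transport members were near 0 (median 0.05). None of the members with a mean of at least 1 CPM in this pair differed by 2-fold, against 0.747% of 13120 genes lower and 0.694% higher. Among members under that level, KIF12 had 4 and 0 counts and KIF17 had 3 and 6, with intervals of the ratio that included 0. Of 12 mitotic members compared, the interval of the ratio lay below 0 for 9 and above 0 for 0, against 16.4% and 13.8% of all genes, whose median was −0.006. Genes with fewer counts have wider intervals, and these shares of all genes were not matched to the counts of the members. Intervals cover counting error alone, and differences of this size cannot be set against a spread between replicates.

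KIF20A had the lowest mitotic ratio, with 1823 counts after si-NC and 1045 after si-HDAC6 (log2 ratio −0.41, interval −0.52 to −0.30). KIF23 had 2713 and 1575 (−0.39, −0.48 to −0.30), KIF20B 1866 and 1092 (−0.38, −0.49 to −0.27) and KIF11 2048 and 1226 (−0.35, −0.45 to −0.25). The 3 kinesin-6 genes thus had near-equal ratios here, and KIF20A per KIF20B was 0.977 and 0.957 (log2 difference −0.03, interval −0.18 to 0.12). Further members with intervals below 0 were KIF14 with 1182 and 721 counts (−0.32), KIF18A with 890 and 551 (−0.30), KIF18B with 1596 and 1038 (−0.23), KIF2C with 1251 and 820 (−0.22) and KIF4A with 1422 and 939 (−0.21). KIF22 had 1433 and 1075 counts (−0.02, interval −0.14 to 0.09) and KIF15 had 197 and 171 (0.19, −0.12 to 0.49), so both intervals included 0. KIF11 and KIF15 separated in this pair, with KIF11 per KIF15 at 10.4 and 7.17 counts, a log2 difference of −0.54 (interval −0.85 to −0.22). KIF4B passed the filter on low counts in this pair alone, and its interval was wide (−1.21 to 0.85).

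For transport members the interval lay below 0 for 3 and above 0 for 4 of 11, against 16.4% and 13.8% of all genes. KIF5B had 9596 and 6228 counts (log2 ratio −0.23, interval −0.28 to −0.19), KIF5C had 702 and 438 (−0.29, −0.46 to −0.11) and KIF5A had 648 and 556 (0.17, 0.00 to 0.34). The heavy chains thus did not move together. KIF3A had 621 and 582 counts and the highest transport ratio (0.30, 0.13 to 0.46), whereas KIF3B had 4124 and 3057 (−0.04) and KIF3C 4682 and 3747 (0.07). KIF13A had 1861 and 1275 counts (−0.15), KIF13B 1898 and 1496 (0.05), KIF16B 826 and 654 (0.05), KIF1B 2386 and 1954 (0.10) and KIF1C 6937 and 5341 (0.01).

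Of the other group, KIF24 had 548 and 324 counts and the lowest ratio (log2 ratio −0.37, interval −0.57 to −0.17). KIF27 had 35 and 51 counts and the highest (0.93, 0.29 to 1.60). KIF21A had 756 and 623 (0.11), KIF21B 189 and 125 (−0.20), KIF2A 1094 and 877 (0.07), KIF7 522 and 370 (−0.10), KIF9 62 and 51 (0.11), KIF6 58 and 42 (−0.07) and KIF26B, which passed the filter in this pair alone, a ratio of 0.57, all with intervals that included 0. Of the 14 partners and kinases, 12 had intervals below 0, against 16.4% of all genes, with a median log2 ratio of −0.22 and AURKA the lowest (−0.38). CENPE had 2591 and 1427 counts (−0.47, interval −0.56 to −0.38). Of the other kinesins with other names, KIFC2 (0.27), KIFC3 (−0.05) and STARD9 (−0.17) had intervals that included 0. KIFC1, a minus-end motor of the spindle, had a mean under 1 CPM and was not among the genes compared. It had 26 and 2 counts (log2 ratio −3.01, interval −6.43 to −1.31). No light chain, adaptor, dynein or dynactin gene with a mean of at least 1 CPM differed by 2-fold, against 0.747% of all genes lower and 0.694% higher.

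The controls of the lines were compared last, R-U87MG si-NC against U87MG si-NC, as the design sets a resistant line beside its parent. The deposited values appear to be scaled separately in these pairs, so the ratio rests on the normalization across pairs done here. R-U87MG also grew in TMZ, and the line and its medium cannot be told apart. Each of these libraries is also the control of a comparison above. Both siRNA targets were lower in R-U87MG si-NC than in U87MG si-NC, *LINC00461* with a log2 ratio of −1.23 and HDAC6 with −1.13. The part of this in the kinesin levels was not tested. All 11 mitotic members compared were higher in R-U87MG, with a median log2 ratio of 0.88, while transport members had a median of −0.06. Of the 11 transport members compared 2 were 2-fold lower, a share near the 15.0% of all genes. At least 2-fold higher were 5 mitotic members, against 11.2% of 13349 genes. The ratio and its interval lay above 0 for all 11, against 51.1% (ratio) and 39.4% (interval) of genes. For transport members the interval lay below 0 for 4 and above 0 for 3, against 38.8% and 39.4% of genes. With total counts in place of TMM, the median of all genes moved from 0.02 to 0.28, the mitotic median to 1.15 and the transport median to 0.20, so the gap between the groups changed little while the transport sign did.

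With the counts given above, KIF4A had the highest mitotic ratio (log2 ratio 1.44, interval 1.29 to 1.59). KIF23 (1.26), KIF18A (1.14), KIF11 (1.12) and KIF20A (1.04) were also at least 2-fold higher, and intervals lay wholly beyond 2-fold for 3 of the 11, against 6.34% of genes. The lower ones were KIF20B (0.88), KIF14 (0.81), KIF18B (0.74), KIF15 (0.53), KIF2C (0.50) and KIF22 (0.49). KIF2C, with the lowest ratio after si-LINC00461, was thus among the least different members between the lines. Both of its ratios have U87MG si-NC as control and are not independent. KIF18B per KIF18A was 2.35 in U87MG si-NC and 1.79 in R-U87MG si-NC, a log2 difference of −0.39 (interval −0.60 to −0.19).

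Among transport members with a mean of at least 1 CPM, those that differed most were kinesin-1 heavy chains with known neuronal enrichment. KIF17, under that level, had 22 and 3 counts (log2 ratio −2.68, interval −5.25 to −1.14). KIF5A had a log2 ratio of −1.26 (interval −1.39 to −1.12) and KIF5C of −1.07 (−1.20 to −0.94), against 15.0% of genes at least 2-fold lower. With total counts these ratios were −0.99 and −0.81, and neither was 2-fold lower. KIF5B was higher in R-U87MG (0.42, interval 0.38 to 0.47). A comparison within each library, which needs no scaling, gave KIF5A per KIF5B as 0.216 in U87MG si-NC and 0.0675 in R-U87MG si-NC, a log2 difference of −1.68 (interval −1.82 to −1.54), and KIF5C per KIF5B as 0.206 and 0.0732 (interval of the log2 difference −1.63 to −1.36). As a share of the kinesin-1 level per kb, KIF5B made up 74.9% in U87MG si-NC, 72.3% in U87MG si-LINC00461, 90.1% in R-U87MG si-NC and 88.6% in R-U87MG si-HDAC6. Both R-U87MG libraries thus had a larger KIF5B share than both U87MG libraries. In the kinesin-2 group, KIF3C had the highest transport ratio between the lines (0.72, interval 0.65 to 0.78), and its share of the level per kb was 36.6%, 43.7%, 48.8% and 49.9% in the same order. KIF3B (0.05) differed little and KIF3A was lower (−0.32). KIF16B was higher (0.47, interval 0.32 to 0.63) and KIF1B lower (−0.31), while KIF1C (−0.02), KIF13A (−0.06) and KIF13B (−0.07) had intervals that included 0.

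**Figure D2:**
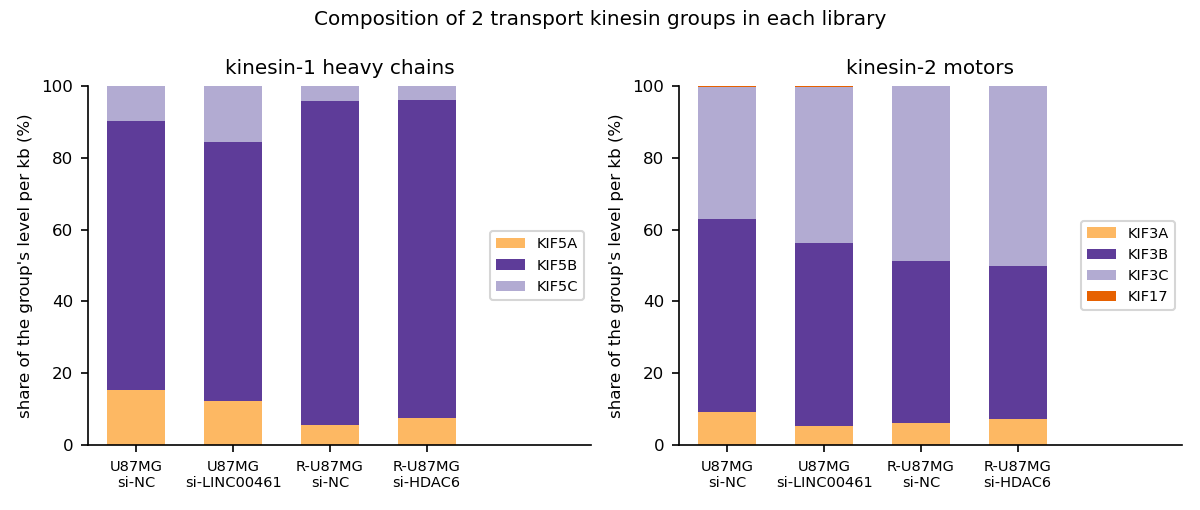
Share of the summed level per kb of exon (%) held by each heavy chain of kinesin-1 (left) and each motor of kinesin-2 (right), 1 stacked bar per library. KIF5B holds 72.3% to 74.9% in the U87MG libraries and 88.6% to 90.1% in the R-U87MG libraries, and KIF3C ranges from 36.6% to 49.9%.

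Among the other members, KIF6 had 5 counts in U87MG si-NC and 58 in R-U87MG si-NC (log2 ratio 3.41, interval 2.23 to 5.22). It passed the filter on low counts only through R-U87MG and so had to differ. KIF9 (0.95, interval 0.32 to 1.62), KIF21A (0.92, 0.74 to 1.10) and KIF24 (0.85, 0.65 to 1.06) were higher, KIF7 was lower (−0.68, −0.84 to −0.52), and KIF21B (−0.33) was slightly lower. KIF27 (−0.22) and KIF2A (0.08) had intervals that included 0. Of the partners and kinases 4 of 14 were 2-fold higher and 0 lower, against 11.2% and 15.0% of all genes, with BIRC5 the highest (1.26) and PSRC1 the lowest (−0.55). CENPE (1.42) and KIFC3 (0.85) were higher, whereas KIFC2 (−1.89) and STARD9 (−1.06) were lower. KIFC1, under 1 CPM, had 7 and 26 counts. Of the light chains and adaptors compared, 5 of 15 were 2-fold lower, against 15.0% of all genes, among them KLC4 (−1.78). Another of the 5, MAPK8IP2, had 59 and 9 counts, passed the filter only through U87MG and so had to be lower. Of dynein and dynactin 1 of 16 was 2-fold lower, under the same 15.0% of all genes, namely the neuronal intermediate chain DYNC1I1 (−2.20).

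**Figure D3:**
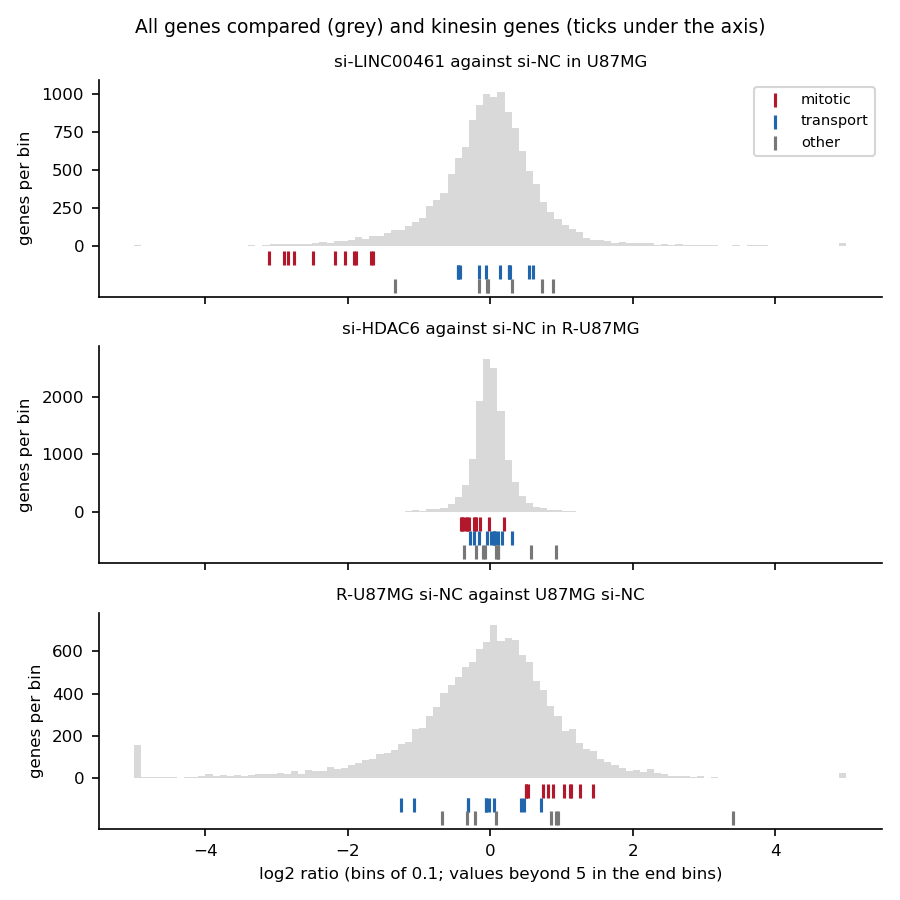
Histograms of the log2 ratios of all genes with a mean of at least 1 CPM (grey, in genes per bin) for the 3 comparisons, with ticks below for kinesin genes coloured by role and values beyond 5 placed in the end bins. Between si-LINC00461 and si-NC the mitotic ticks run from −3.11 to −1.65 and the transport ticks from −0.46 to 0.60. These groups do not overlap as set here, but KIF2A (−0.04), placed in the other group, would lie in the transport range if counted as mitotic.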

How the data were processed

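RNA-seq libraries of U87MG and R-U87MG cells, 1 per group, were made with a strand-specific kit. The submitters' processing notes name bcl2fastq, Trimmomatic 0.36, HISAT2 and GRCh38.p13, and the counting program, its annotation and strand setting are not given in the sources used here. The deposited values, given for each Ensembl gene, looked like estimated counts scaled by a single factor in every library. This factor was inferred from the values themselves. Each value was divided by its factor (0.939, 1.06, 0.869 and 1.15 for U87MG si-NC, U87MG si-LINC00461, R-U87MG si-NC and R-U87MG si-HDAC6), and 93.4% to 94.1% of the values above 0 came out whole within 0.02, including all values of the members. The rest were rounded, and the log2 ratios below were made from these whole numbers.

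Symbols, positions and exon lengths came from GENCODE 29. Libraries of each pair were normalized by TMM (edgeR 4.0.16, R 4.3.3), with DESeq2 1.42.0 size factors as an alternative. The log2 ratio of counts plus 0.5 was taken for genes with a mean of at least 1 CPM, and a gene was called at 2-fold. Such ratios understate changes of genes with few counts. Intervals are exact binomial (Clopper-Pearson) at 95%, except those of differences between 2 ratios, which use a normal approximation on the log scale. They cover counting error only and narrow as counts rise, and shares of all genes were not matched to members by count. With 1 library per group no test of a condition was made. All members are named, with counts in every library for those of at least 1 CPM over the 4 libraries. From longer lists of other genes at most the 2 lowest and 2 highest ratios are named. Members, roles and lists were chosen with earlier results of these data known. Ratios and intervals were tested on simulated counts. Overlaps between members and other genes were read from GENCODE 29, and promoter sequence from RefSeq. Scripts ran in Python 3.11.15 with numpy 2.4.6, pandas 2.3.3, scipy 1.17.1 and matplotlib 3.10.9.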

Additional observations from a re-analysis of the deposited data

How the results depend on the processing

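The medians of the 3 groups, the counts of members past 2-fold and the log2 ratios of single members were recomputed with total counts, DESeq2 size factors, upper-quartile scaling, other pseudocounts, other filters and fold thresholds, libraries thinned to the smallest total, KIF2A and KIF24 counted as mitotic (medians of mitotic and other kinesins only) and, chosen after seeing the data, the authors' own scaling. The lists of other genes, the ratios between paralogs and the shares within motor families were not recomputed. Of the main values 149 stayed close and 27 moved, and of the single ratios 862 and 37. A change of direction was looked for only where the main median or single ratio was at least 2-fold, and none was found. Smaller medians did change sign, as given below. No paired analysis was possible because each group has 1 library and the labels carry no replicate numbers, and no replicate could be left out. For si-LINC00461, a minimum of 0.1 CPM, or no filter, gave a transport median of −0.057. No filter, or KIF2A and KIF24 as mitotic, gave a median of 0.31 for other kinesins. At least 2-fold higher were 2 members with no filter and 3 at 1.5-fold. For si-HDAC6, 1 member was 2-fold lower and 1 higher at 0.1 CPM and with no filter, and 1 was higher at 1.5-fold. Between the controls, total counts gave medians of 1.15 (mitotic), 0.20 (transport) and 0.73 (other), with 0 members lower and 12 higher. A minimum of 5 CPM gave 0.084 for other kinesins, the authors' scaling −0.17 for transport, an interval wholly beyond 2-fold left 1 lower, and 1.5-fold gave 13 higher. The fragment ratios of mitotic to transport moved as given above per kb (0.410, 0.0765, 0.701 and 0.603) and without KIF23 and KIF5B (0.296, 0.556 and 0.455). The cause was not tested. At this depth, levels under 3 counts could not be measured.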
